A study of Mus musculus with 24 samples.

Results

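Heart and skeletal muscle are the striated tissues of the mouse, and the genes that set both of them apart from liver and brain are described here. The members were chosen on the 12 arrays of wild-type (WT) mice, of 24 arrays in all. A gene met the rule of sides if its mean heart and muscle levels both lay above, or both below, its mean liver and brain levels. Of 18022 genes tested, 6449 met this rule, 3812 of them higher in heart and muscle (21.2%) and 2637 lower (14.6%), and 11573 did not. Each of the 4 differences was then tested with limma, and 1761 genes passed all 4 tests after Benjamini-Hochberg adjustment of the highest of the 4 p-values over 40758 probes. Of these shared genes, 1184 were higher in both striated tissues (6.57% of the genes tested) and 577 were lower (3.2%).

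The samples came from 3 WT and 3 Rap1 KI/KI male mice, backcrossed to the C57BL/6N strain, each of which gave a liver, a brain, a heart and a skeletal muscle sample that the labels do not locate further. Rap1 KI/KI mice carry the I312R change on both alleles of *Terf2ip*, the gene of the telomere protein RAP1, in every cell, and no mouse was otherwise treated. In each genotype the first mouse, WT1 or KI1, was aged 5 months, and WT2, WT3, KI2 and KI3 were aged 2 months. RNA was hybridized to 1-color Agilent arrays, and levels are on a log2 scale, on which 0 marks the signal that 75% of the probes of an array do not exceed. A tissue is called dark for a gene when none of its arrays was well above background, and then only a bound on the difference is given. Levels of different genes come from different probes and were not compared with each other.

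Striated muscle contracts by the sliding of actin thin filaments, anchored at the Z-disc, along myosin thick filaments, anchored at the M-band. Calcium released from the sarcoplasmic reticulum through ryanodine receptors triggers each contraction, and creatine kinases buffer the ATP that it uses. Heart and skeletal muscle carry their own versions of many contractile proteins, but share others, along with tissue forms of metabolic enzymes that liver and brain replace by different isozymes.

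The labelled tissues had their own markers. All 8 hepatocyte markers were well above background on every liver array and all 7 neuron markers on every brain array. All 7 cardiomyocyte markers were so on every heart array and all 7 myofibre markers on every muscle array. Detection alone does not set the tissues apart, since all 7 myofibre markers were also well above background on every brain array. Their mean level was 7.70 to 7.87 on the WT muscle arrays and -3.31 to -2.46 on the WT brain arrays. Among the brain arrays, that of WT1 stood apart, with all 8 hepatocyte markers well above background. Their mean level on it was -1.97, against -5.55 and -5.37 on the brain arrays of WT2 and WT3. On the heart array of WT2 all 8 were well above background as well, with a mean level of 0.90. Without mouse WT1, 897 genes were higher and 359 lower in heart and muscle, and the part of these markers in the calls was not tested. The targeted gene *Terf2ip*, in which the knock-in changes 1 residue and need not change the level, ranged from 1.17 to 2.07 on the WT arrays and from 0.69 to 1.90 on the Rap1 KI/KI arrays and was not a shared gene. Heart and muscle RNA was prepared with a fibrous tissue kit and zirconia beads, and liver and brain RNA with a standard kit and glass beads, so that preparation and tissue group cannot be told apart. The arrays lay on 3 slides, of which the first held the livers and the brain of WT1, the second the other WT brains and the hearts of WT1 and WT2, and the third the heart of WT3 and the muscles. A fit with the slide as a block reached 483 higher and 249 lower genes, of which 467 and 195 were among the 1184 and 577. With 1 mouse left out, 572 to 897 genes were higher and 281 to 359 lower, and the counts were lowest without WT3 and next lowest without WT2. Nothing in the design separates fewer cells of a type from less RNA per cell.

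The distance between the striated tissues and the other tissues was measured by the margin, the smallest of the 4 fitted differences, which for a gene dark in a tissue rests on signals not well above background and is counted but not printed where it exceeds the bound. Among the 1184 higher genes the median margin was 1.92 log2 units and 203 genes had a margin of at least 4. Among the 577 lower genes the median was -1.97 and 68 genes reached -4 or below. More genes differed when the tissues were averaged: the mean of heart and muscle differed from the mean of liver and brain at 6156 genes upward (34.2%) and 5751 downward (31.9%), of which 2656 and 3368 did not meet the rule. The threshold ran between *Ctdnep1*, with an adjusted p of 0.0498 and a margin of 1.05, and *H2bc21*, with 0.0501 and 0.95. On the lower side it ran between *Os9*, with an adjusted p of 0.0499 and a margin of -0.90, and *Capn10*, with 0.0501 and -0.84.

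**Figure D1:**
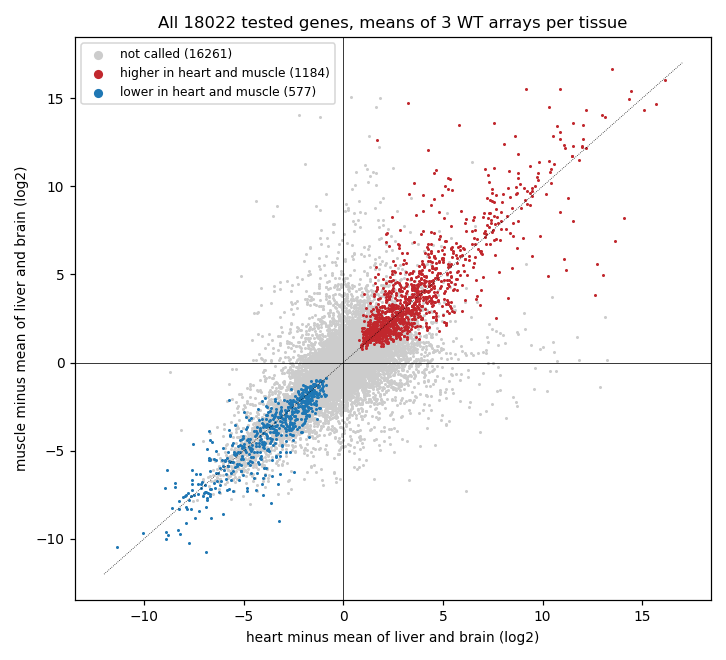
Each point is 1 of the 18022 tested genes, with the mean level in 3 WT hearts (x axis) and in 3 WT muscles (y axis), each minus the mean of liver and brain, in log2 units. The 1184 higher genes (red) fill the upper right and the 577 lower genes (blue) the lower left, and grey points off the dotted diagonal are genes in which heart and muscle differ from each other.

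*Ckmt2*, the mitochondrial creatine kinase of sarcomeric muscle, had levels of 9.12, 8.60 and 8.98 in the hearts and 8.47, 8.69 and 9.20 in the muscles of WT1, WT2 and WT3. None of the 3 livers or 3 brains was well above background, and the gene was at least 27887-fold higher in each striated tissue than in each other tissue. Such a bound sets the mean of the brighter tissue against the lowest signal that each array of the dimmer one scored as well above background, or against the probe's own signal where that is higher. *Ckm*, the cytosolic muscle creatine kinase, had levels of 6.13, 5.60 and 6.65 in the hearts and 9.44, 9.45 and 9.02 in the muscles. It too was not well above background on any liver or brain array, was at least 4407-fold higher in heart and muscle, and was higher in muscle than in heart by 3.18 log2 units (adjusted p = 0.000901, limma). *Ttn*, the gene of titin, which spans from the Z-disc to the M-band, had levels of 8.16, 7.85 and 8.01 in the hearts and 8.97, 8.91 and 8.94 in the muscles. The brains stood at -5.50, -4.42 and -4.90 and the livers were not well above background, so that the groups lay far apart. In all, 57 of the 1184 genes were not well above background with any probe on any liver or brain array, which include *Xirp2*, *Myot*, *Apobec2*, *Ppp1r3a*, *Klhl41*, *Yipf7*, *Fsd2* and *Tmem182* beside the creatine kinases.

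Among genes measured in all 4 tissues, the widest margins were those of *Rpl3l* (10.50), a ribosomal protein of striated muscle, *Hrc* (10.21), *Klhl31* (10.09), *Myom1* (9.94), *Cox8b* (9.83), *Trim72* (9.71), *Cpt1b* (8.80), *Cavin4* (8.72), *Slc2a4* (8.65) and *Sgca* (8.58). *Hrc*, which binds calcium in the sarcoplasmic reticulum, stood at -2.55, -2.54 and -2.37 in the livers and at -2.14, -2.23 and -2.14 in the brains. It stood at 8.04, 7.76 and 8.33 in the hearts and at 8.41, 8.44 and 8.52 in the muscles. The smallest of its 4 differences was 10.21 with a standard error of 0.20 (adjusted p = 6.67e-10, limma), and heart and muscle did not differ past the threshold (-0.41 ± 0.20, adjusted p = 0.146). *Hrc* was picked by its margin on these same arrays, so the p of that margin is not separate support. *Rpl3*, the widely expressed counterpart of *Rpl3l*, had means of 6.58, 6.35, 5.88 and 4.41 in liver, brain, heart and muscle, and was not called.

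**Figure D2:**
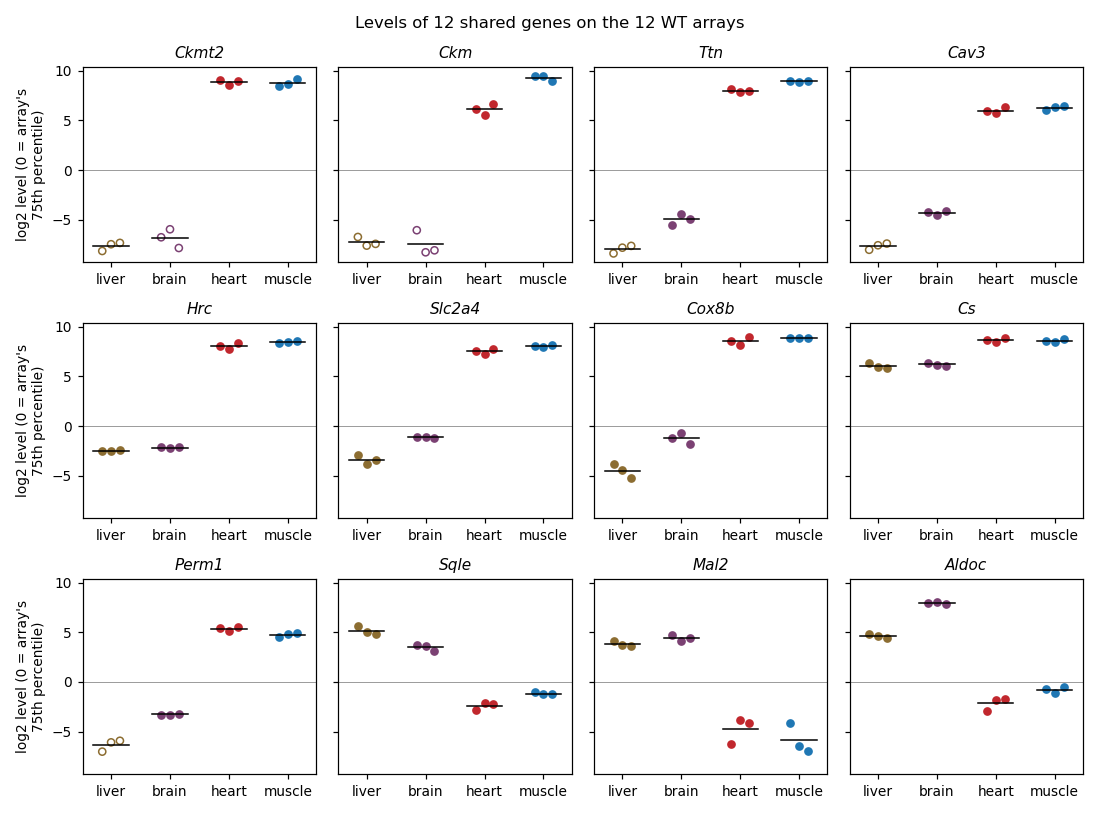
Log2 levels (y axis) of 12 shared genes on the 12 WT arrays, 3 per tissue (x axis), with a line at each mean. Open circles mark a tissue where no array was well above background. In *Ckmt2* to *Perm1* all 6 heart and muscle points lie above all 6 liver and brain points, and in *Sqle*, *Mal2* and *Aldoc* they lie below. The genes were chosen from those called on these same arrays.

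The bases before the starts of these genes were searched for letters that muscle transcription factors are known to bind, because the members were higher together in both tissues. RefSeq promoters (GRCm38.p6, from 250 bases before to 50 after the first listed start) were found for 907 of the 1184 higher genes, 462 of the 577 lower genes and 14214 of all tested genes. The MEF2 site, named for the factors that bind it, was present on either strand in 4.96% of the promoters of higher genes, 1.52% of those of lower genes, 2.12% of those of all tested genes and 3.26% of all 27025 promoters of the table. Among the 203 genes with a margin of at least 4, of which 152 had a promoter, it was present in 15.1%. The CArG box of serum response factor was in 2.54%, 0.87%, 1.48% and 1.57% of the same 4 groups and in 5.26% of the genes with wide margins. CAGCTG, one form of the E-box CANNTG, was in 20% of promoters of higher genes, 14.9% of lower genes, 15.9% of tested genes and 31.6% of genes with wide margins, and CANNTG, which includes it, was in 67.6%, 72.3%, 66.8% and 82.9%. CATTCC, bound by TEAD factors, was in 17%, 11.5%, 12.8% and 23.0%. AAGGTCA, bound by estrogen-related receptors, was in 4.85%, 5.19%, 3.72% and 6.58%, and TATAAA was in 12%, 6.06%, 9.96% and 22.4%. GGGCGG was in 56%, 65.6%, 55.1% and 30.9%, where the median GC content was 59.0%, 61.0%, 59.0% and 54.0%. The groups differ in GC content, whose part in the other shares was not tested, and a match is a description of letters, not of binding.

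Genes with wide margins that belong to a gene list used here were listed if a MEF2 site lay within 250 bases before the start. The listing left out a chromosome by choice and may miss such genes. It held 10 genes, with the site at 30 to 166 bases from the start. The 4 of these 10 with the widest margins are shown to let the spacing be seen, with *Ckm* for comparison, whose window held no MEF2 site. Each is the 250 bases before the start, 5′ to 3′ on the strand of the gene, with the MEF2 site in capitals, or CAGCTG in capitals for *Ckm*. In order they are at chr2:76982548-76982797, - strand, chr2:67445752-67446001, + strand, chr14:26894364-26894613, + strand, chr6:14755275-14755524, - strand and chr7:19410844-19411093, + strand.
Ttn: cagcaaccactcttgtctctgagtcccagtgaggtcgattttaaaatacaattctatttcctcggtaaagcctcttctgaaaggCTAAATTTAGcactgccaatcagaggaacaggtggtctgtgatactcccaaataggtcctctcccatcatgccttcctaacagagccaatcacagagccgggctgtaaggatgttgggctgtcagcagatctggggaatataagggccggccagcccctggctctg
Xirp2: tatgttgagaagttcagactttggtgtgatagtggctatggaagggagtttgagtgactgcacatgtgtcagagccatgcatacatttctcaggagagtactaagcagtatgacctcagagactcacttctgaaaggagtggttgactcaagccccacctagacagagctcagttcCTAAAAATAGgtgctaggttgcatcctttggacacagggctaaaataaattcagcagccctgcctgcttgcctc
Asb14: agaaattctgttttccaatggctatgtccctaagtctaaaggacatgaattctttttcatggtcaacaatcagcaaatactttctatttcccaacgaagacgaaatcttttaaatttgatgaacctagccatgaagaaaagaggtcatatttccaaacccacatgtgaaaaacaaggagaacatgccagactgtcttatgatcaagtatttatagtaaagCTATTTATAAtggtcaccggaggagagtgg
Ppp1r3a: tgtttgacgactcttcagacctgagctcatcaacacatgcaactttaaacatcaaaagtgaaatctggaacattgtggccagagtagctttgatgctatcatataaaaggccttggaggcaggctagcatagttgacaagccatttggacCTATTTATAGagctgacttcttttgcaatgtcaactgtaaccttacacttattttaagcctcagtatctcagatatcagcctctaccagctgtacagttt
Ckm: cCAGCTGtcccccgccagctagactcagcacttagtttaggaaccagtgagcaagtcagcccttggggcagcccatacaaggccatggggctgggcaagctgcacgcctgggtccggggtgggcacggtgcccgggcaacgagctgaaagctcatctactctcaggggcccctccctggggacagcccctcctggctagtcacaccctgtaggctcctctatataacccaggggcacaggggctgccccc

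Contractile genes were called at many members but not at all, and none was lower. The gene lists here and below were chosen with earlier results of these data known. Their shares describe the listed genes and are not a test of a gene family. Against the 6.57% of all genes, 12 of 22 thin filament genes were higher, as were 12 of 25 of the thick filament and M-band and 15 of 25 of the Z-disc. The median difference between the mean of heart and muscle and the mean of liver and brain was 7.05, 6.37 and 8.28 log2 units in these lists, where the median of all 18022 genes was 0.05. *Actc1*, the actin of heart muscle, had a margin of 13.14, with levels from 8.91 to 9.90 in the 3 hearts and from 6.80 to 9.35 in the 3 muscles. The lowest of these was the muscle of WT1. *Myom2* and *Myom1*, which crosslink myosin at the M-band, had margins of 12.28 and 9.94. *Smpx*, a small protein of striated muscle, had a margin of 11.02. At the Z-disc, *Myot* was at least 581-fold higher, *Ldb3* had a margin of 8.39, *Pdlim5* of 8.20, *Des*, the intermediate filament of muscle, of 8.18, and *Tcap*, which caps titin, of 7.87. *Xirp2*, which binds actin, was not well above background in liver or brain and at least 879-fold higher in heart and muscle.

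Many of the members without a call were forms that heart or muscle keeps for itself. In 15 pairs of a heart form and a skeletal form of the same protein, 6 heart forms and 8 skeletal forms were higher in both tissues. *Acta1*, the skeletal actin, was among them with means of 5.45 in heart and 9.77 in muscle against 0.11 in brain and -5.32 in liver. *Myh6*, the alpha myosin heavy chain of the heart, had means of 8.95 in the heart and 0.18 in the muscle, against -3.44 in liver and -3.90 in brain. *Myl2* had means of 8.81 in heart and 0.75 in muscle, and *Tnni2*, the fast skeletal troponin I, of 2.06 in heart and 9.87 in muscle, so that each lay above liver and brain in the tissue it is not named for. The calls of *Myh6* and *Myl2* were lost with the slide as a block and without WT2, and that of *Myl2* also without WT3. *Myh6* was not called either when the probes of a gene were averaged. Other forms were not shared. *Tnni3*, the cardiac troponin I, had means of 8.59 in heart and -4.47 in muscle, and *Myh4*, a fast myosin heavy chain, was not well above background on any heart array and had a mean of 9.23 in muscle. *Mylpf*, a light chain of fast muscle, had means of -3.32, -4.74, -3.66 and -1.67 in liver, brain, heart and muscle. Its probe was thus dim in muscle too and does not show whether heart shares the gene.

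The membrane skeleton and the quality control of the sarcomere were among the most fully called lists. Against 6.57% of all genes, 18 of 23 genes of the costamere and sarcolemma were higher (median difference 5.65). They include *Itgb1bp2*, dark in liver and at least 1760-fold higher, *Cav3*, the caveolin of muscle (margin 10.33), *Trim72*, which repairs the membrane (9.71), *Cavin4* (8.72), *Sgca*, a sarcoglycan (8.58), and *Popdc2* (8.34). *Dmd*, the gene of dystrophin, was not called on the probe it was read from, which had means of -1.82, -1.96, -1.25 and -1.24 in liver, brain, heart and muscle. Of 18 ubiquitin ligase genes listed as muscle genes, 17 were higher (median difference 6.88). *Trim63*, which encodes MuRF1, stood at 5.49, 5.34 and 5.21 in the hearts and 6.21, 5.97 and 5.80 in the muscles, against -5.87, -6.05 and -4.79 in the brains, and no liver array was well above background. *Klhl31* had a margin of 10.09 and *Asb2* of 7.48. *Trim54*, dark in liver, was at least 1148-fold higher, and *Klhl41*, dark in liver and brain, was at least 136-fold higher. All 10 tested genes of small heat shock proteins and muscle chaperones were higher (median difference 5.70), with margins of 7.65 for *Hspb2*, 7.32 for *Hspb7*, 5.91 for the myosin chaperone *Unc45b*, 4.26 for *Hspb6* and 3.48 for *Cryab*. Of these, 6 passed with the slide as a block and 7 to 9 with 1 mouse left out. Of 20 genes of muscle kinases and signaling, 10 were higher (median difference 4.01), among them *Alpk3* with a margin of 9.36. *Art1*, dark in liver, was at least 3318-fold higher, and *Alpk2*, dark in liver and brain, at least 75.3-fold.

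Of 34 genes of excitation-contraction coupling, 13 were higher (median difference 4.48), against 6.57% of all genes. *Dhrs7c*, a protein of the sarcoplasmic reticulum, and *Trdn*, which ties calsequestrin to the release channel, were dark in liver and at least 3713- and 2101-fold higher in heart and muscle. *Hrc* had a margin of 10.21, *Srl* of 7.81 and *Jph2*, which holds the reticulum to the surface membrane, of 6.29. Both calsequestrins passed in both tissues, although each favored its own: *Casq2* had means of 6.27 in heart and 0.35 in muscle, and *Casq1* of -0.69 in heart and 6.99 in muscle, against -2.71 and -5.37 in brain. The call of *Casq2* was lost with the slide as a block and without WT2 or WT3. *Atp2a1*, the calcium pump of fast muscle, was also called, with means of 3.1 in heart and 7.98 in muscle. *Atp2a2*, the cardiac pump, was not, since muscle (1.42) lay below brain (4.56).

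Metabolic genes were called in 2 ways, through tissue forms with wide margins and through common enzymes with narrow ones. Of 8 genes of the phosphagen, myoglobin and adenylate list, 7 were higher, against 6.57% of all genes. *Mb*, the gene of myoglobin, stood at 8.83, 8.45 and 9.11 in the hearts and 7.27, 8.16 and 8.56 in the muscles, against -3.61, -4.82 and -5.45 in the brains, with no liver array well above background. *Ak1* (margin 2.73), *Adssl1* (2.36) and *Slc25a4* (1.84) followed. Of 23 genes of glycogen and glycolysis, 14 were higher (median difference 4.22). *Slc2a4*, the insulin-regulated glucose transporter, stood at 7.57, 7.23 and 7.74 in the hearts, 8.10, 7.96 and 8.12 in the muscles, -1.12, -1.09 and -1.20 in the brains and -2.90, -3.84 and -3.46 in the livers. Its margin was 8.65 (standard error 0.25, adjusted p = 4.11e-09, limma), a p from the same arrays on which the gene was picked. *Fbp2*, *Pgam2*, *Hk2* and *Eno3* had margins of 7.82, 7.44, 7.23 and 7.10.

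Of 28 genes of fatty acid uptake and oxidation, 7 passed all 4 tests, against 6.57% of all genes. The mean of heart and muscle exceeded the mean of liver and brain past the threshold at all 28, as it did at 34.2% of all genes. With the slide as a block 3 of the 28 passed, and 3 to 6 with 1 mouse left out. *Cpt1b*, which starts the entry of fatty acids into mitochondria in muscle, had a margin of 8.80, the fatty acid transporter *Cd36* of 4.60, *Lpl*, which releases fatty acids from lipoproteins, of 4.11 and *Fabp3*, a fatty acid binding protein, of 2.54. In *Fabp3* the nearest other tissue was the brain, at 5.42, 4.65 and 4.99 against 6.84 to 8.01 in the muscles. Of 14 genes for the use of ketone bodies and branched-chain amino acids, 3 were higher, which were *Bckdk* (2.43), *Bcat2* (1.57) and *Oxct1* (1.44), and 1 passed with the slide as a block.

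Of 33 genes of pyruvate oxidation and the TCA cycle, 15 were higher (median difference 1.88), against 6.57% of all genes. *Pdk4*, a kinase that restrains pyruvate dehydrogenase, had the widest margin at 6.77. *Cs*, citrate synthase, stood at 6.33, 5.93 and 5.82 in the livers, 6.34, 6.19 and 6.08 in the brains, 8.63, 8.46 and 8.82 in the hearts and 8.52, 8.44 and 8.73 in the muscles. Each striated tissue was thus 5.13- to 6.11-fold above each other tissue. *Idh3a* (2.36), *Idh3g* (2.09) and *Slc25a11* (1.90) had margins of similar size. Of 74 genes of the respiratory chain and ATP synthase, 40 were higher and 68 met the rule of sides upward, against 6.57% and 21.2% of all genes. Their median difference was 1.65. Beyond the 3 muscle forms *Cox8b*, *Cox7a1* and *Cox6a2*, with margins of 9.83, 7.23 and 7.13, the widest was *Ndufa5* at 1.81. The count of 40 depends on the fit. With the slide as a block, which called 483 of the 18022 genes higher, 3 of the 74 passed. With 1 mouse left out, which called 572 to 897 of all genes higher, 4 to 16 passed. In the TCA list these counts were 7 and 7 to 14. In the ubiquitin ligase list they were 16 and 17. Of 13 genes of coenzyme Q synthesis, 2 passed, *Coq10a* (2.70) and *Coq5* (1.13), and 1 with the slide as a block or with 1 mouse left out.

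**Figure D3:**
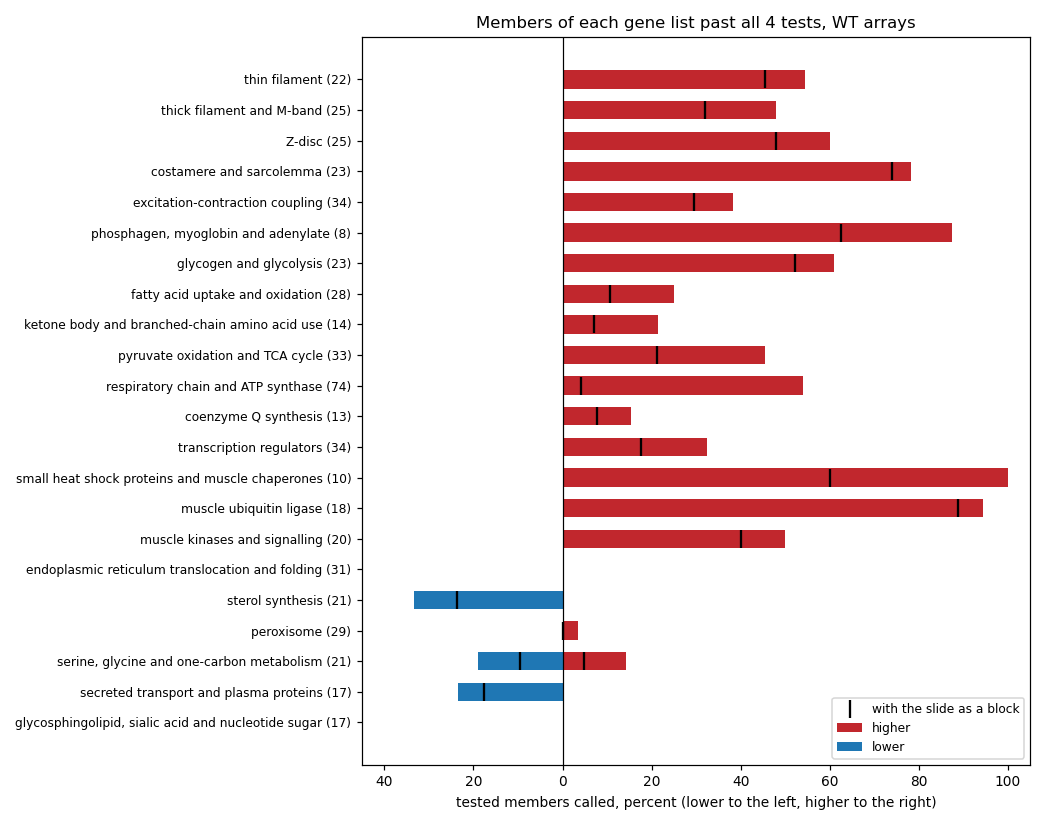
Share of the tested members of each gene list (number in parentheses) that passed all 4 tests on the WT arrays, in percent (x axis), higher to the right and lower to the left. Black ticks give the share with the slide as a block. The bar of the respiratory chain shrinks from 40 to 3 genes, while that of the ubiquitin ligases shrinks from 17 to 16.

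In 40 pairs of a striated form and another form of the same enzyme or protein, 31 of the 35 distinct striated forms were higher in both tissues and none was lower, while 2 of the 40 distinct other forms were higher and 5 were lower. Of all genes, 6.57% were higher and 3.2% lower, so that the share of other forms that were higher lay near that of all genes. *Cox6a2*, a subunit of cytochrome c oxidase, stood at 9.44, 9.09 and 10.02 in the hearts and 9.43, 9.46 and 9.66 in the muscles, against 2.66, 1.89 and 2.62 in the brains and -2.33, -2.41 and -2.08 in the livers. Its counterpart *Cox6a1* had means of 9.03, 8.32, 8.16 and 6.94 in liver, brain, heart and muscle and was not called. *Pgam2* and *Pgam1*, the phosphoglycerate mutases, went apart on both sides: *Pgam1* stood at 6.94, 6.53 and 6.45 in the livers, 6.83, 6.36 and 6.36 in the brains, 4.88, 4.69 and 4.45 in the hearts and 3.46, 3.27 and 3.35 in the muscles. The other forms that were lower are *Aldoc*, *Fabp7*, *Ampd2* and *Adss*. *Cav1* and *Flna*, a caveolin and a filamin found in many cell types, were the other forms that were higher, with margins of 4.13 and 1.62. The striated forms that did not pass are *Ampd1*, which no heart array measured well above background, *Ldhb*, *Prkaa2*, and *Eef1a2*, whose level in brain (3.96) came near that in heart (4.64).

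**Figure D4:**
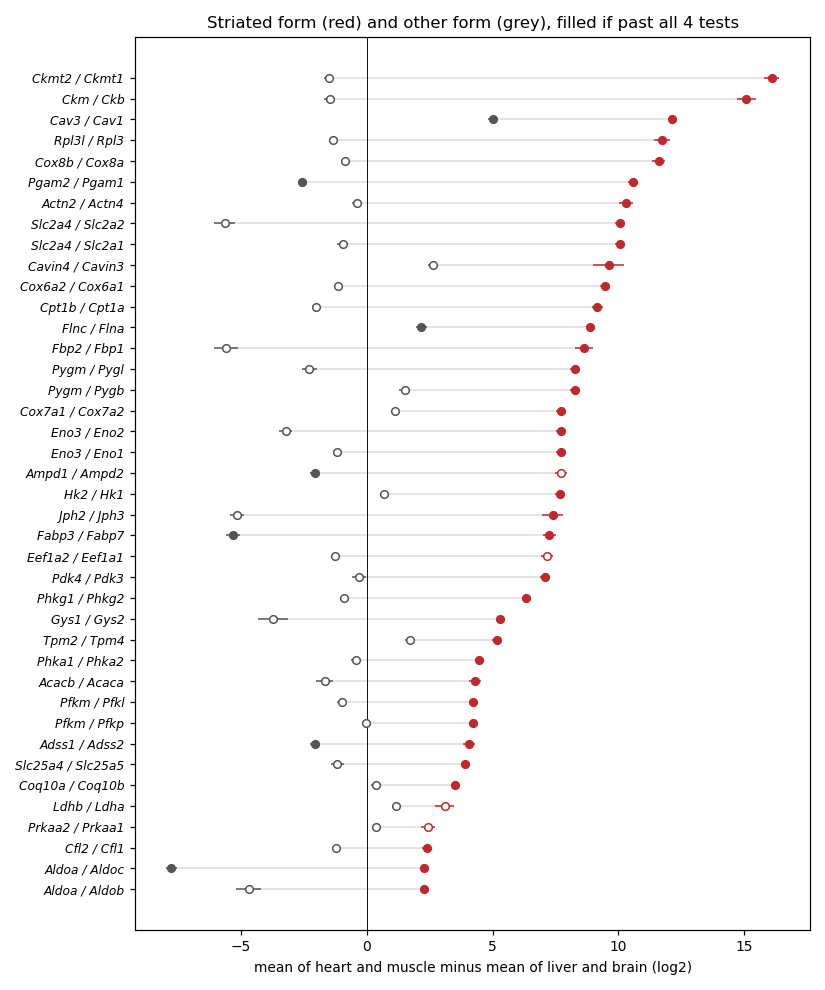
For each of 40 pairs (y axis), the mean of heart and muscle minus the mean of liver and brain in log2 units (x axis) of the striated form (red) and the other form (grey), with bars of 1 standard error. Filled points passed all 4 tests. All red points lie to the right of the grey point of their pair.

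Of 34 transcription regulators of heart and muscle, 11 were higher (median difference 2.15), against 6.57% of all genes. The count was 6 with the slide as a block and 7 to 8 with 1 mouse left out. *Perm1*, which acts on mitochondrial genes in muscle, had the widest margin at 8.05, with levels of 5.42, 5.14 and 5.52 in the hearts and 4.54, 4.82 and 4.98 in the muscles against -3.28, -3.28 and -3.25 in the brains. *Tead1*, a factor that binds CATTCC, had a margin of 3.77, *Esrra*, an estrogen-related receptor, of 1.81 and *Srf*, which binds the CArG box, of 1.12. *Tbx5*, known from heart development, was higher in heart than in muscle by 5.16, yet muscle still lay above liver and brain. *Tbx5* was dark in liver and brain, and was at least 20.3-fold higher in muscle and at least 727-fold higher in heart. *Smyd1*, a methyltransferase of striated muscle, had a margin of 2.60. None of the MEF2 genes in the list was called. The margin of *Mef2a* was 1.59 (adjusted p = 0.0775, limma), and *Mef2c* was lower in heart (-0.50) than in brain (0.98).

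Markers of cells other than muscle fibers also differed between the tissue groups. Their levels in whole tissue do not count cells. Of the markers tested, 6 of 10 of endothelial cells, 6 of 8 of smooth muscle and pericytes, 7 of 8 of fibroblasts, 1 of 6 of adipocytes and 2 of 4 of Schwann cells were higher in both striated tissues, against 6.57% of all genes. The mean level of the endothelial list was 3.73 to 3.85 on the heart arrays and 2.58 to 2.88 on the muscle arrays, against 0.95 to 1.38 in liver and -0.35 to -0.32 in brain. That of the fibroblast list was 2.76 to 3.73 and 2.78 to 3.68, against -0.65 to 0.02 and -2.20 to -1.85. That of the smooth muscle list was 3.64 to 4.03 and 2.96 to 3.52, against -0.78 to -0.19 and -0.35 to -0.14. The adipocyte list ran from -1.77 to 1.76 in the hearts and from 2.93 to 6.05 in the muscles, against -1.43 to -0.82 and -4.52 to -4.48, and *Adipoq* was dark in liver and brain. The Schwann cell list, called at *Pmp22* and *Prx*, ran from -0.868 to -0.304 in the WT hearts and from 0.887 to 1.469 in the WT muscles. In the WT livers it ran from -2.644 to -1.942 and in the WT brains from -0.985 to -0.725, which overlaps the hearts. Macrophage and red cell lists had 0 of 6 and 0 of 4 called. Hepatocyte markers had a mean level of -1.50 to 0.90 in the hearts and -2.10 to -0.83 in the muscles, and 0 of 8 were called lower, where the brains of WT1, WT2 and WT3 lay at -1.97, -5.55 and -5.37. How far genes such as *Cav1*, *Lpl* and *Cd36*, which these cells also express, owe their place to them was not tested. With the slide as a block, 0 endothelial, 4 smooth muscle, 2 fibroblast, 0 adipocyte and 0 Schwann cell markers passed, and with 1 mouse left out 1 to 4 endothelial and 3 to 5 fibroblast markers.

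Within the shared set the striated tissues still differed from each other. Among the 1184 higher genes, 179 were higher in heart and 273 higher in muscle, and 732 did not pass the test, which does not show equal levels. Of all genes tested, 19.6% were higher in heart and 15% higher in muscle. The difference between heart and muscle was within 1 log2 unit at 790 of the 1184. Among the 577 lower genes, 114 were higher in heart and 38 in muscle. Over both sets these were 293 and 311 genes. Among the smaller shared sets of the other fits they were 88 and 145 with the slide as a block, 66 and 124 without WT2, 90 and 130 without WT3, and 156 and 215 without WT1.

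Genes lower in heart and muscle included transport proteins and enzymes of liver and brain. *Mal2*, a protein of polarized transport, had the widest margin among genes measured in all 4 tissues, with levels of 4.17, 3.77 and 3.61 in the livers and 4.77, 4.13 and 4.44 in the brains. It was well above background on 2 heart arrays and 1 muscle array, and its 6 levels there ran from -6.92 to -3.80. *Ttr*, the thyroxine carrier made by liver and choroid plexus, had a margin of -6.24 and stood at 8.44 to 9.06 in the livers, 4.43 to 5.87 in the brains and -2.56 to 0.58 in heart and muscle. *Ngef* (-6.22), *Itih3* (-5.96), *Plcxd2* (-5.66), *Aifm3* (-5.57), *Sema4g* (-5.48), *Aldoc*, the brain aldolase (-5.40), *Susd4* (-5.37) and *Wwc1* (-5.33) followed. In 107 of the 577, no probe was well above background on any heart or muscle array. Such genes were tested on the strength of the liver and brain arrays alone. These include *Olig1*, *Slc30a10*, which exports manganese, and *Faah*, which degrades fatty acid amides.

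Sterol synthesis was lower at 7 of 21 genes, higher at none, and the mean of heart and muscle lay below the mean of liver and brain past the threshold at all 21 (median difference -2.40). Of all genes, 3.2% were lower by all 4 tests and 31.9% by the test of the averaged tissues. Of the 21, 5 passed with the slide as a block and 4 to 5 with 1 mouse left out. *Sqle*, squalene epoxidase, stood at 5.62, 5.01 and 4.80 in the livers, 3.72, 3.63 and 3.15 in the brains, -2.80, -2.15 and -2.21 in the hearts and -1.05, -1.24 and -1.25 in the muscles. It was 25.6-fold lower in muscle than in brain and 185-fold lower in heart than in liver. *Msmo1* (-3.13), *Lss* (-2.60), *Mvd* (-1.32) and *Hmgcs1* (-1.31) were also lower. Of 21 genes of serine, glycine and one-carbon metabolism, 4 were lower, *Cbs* (-4.53), *Gldc* (-3.51), *Aldh1l1* (-1.85) and *Amt*, which was dark in heart and muscle and at least 3.91-fold lower there, and 3 were higher, *Aldh1l2* (1.81), *Mtr* (1.05) and *Mat2a* (1.01), against 3.2% and 6.57% of all genes. With the slide as a block 2 were lower and 1 higher, and with 1 mouse left out 2 to 4 and 0 to 1. *Aldh1l1* is the cytosolic and *Aldh1l2* the mitochondrial form of the same dehydrogenase. Of 17 secreted transport and plasma protein genes, 4 were lower, *Ttr*, *Itih3*, *Igfbp2* (-5.28) and *Agt* (-1.28). Of 29 peroxisome genes 1 was higher, *Gnpat* (1.63), a smaller share than the 6.57% of all genes, and it was lost with the slide as a block. Of 31 genes of endoplasmic reticulum translocation and folding and 17 of glycosphingolipid and nucleotide sugar metabolism 0 passed by limma in either direction, although 15 and 9 of them were lower by the test of the averaged tissues, which called 31.9% of all genes lower.

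The 12 arrays of the Rap1 KI/KI mice had no part in the choice of the genes and were fitted alone with the same 4 tests. Each lay on the slide of the WT array of the same tissue and mouse number, and kits were the same by tissue. Any effect of slide or kit would thus recur in them. Over all genes the Rap1 KI/KI arrays called 1024 higher (5.68%) and 558 lower (3.1%). Of the 1184 genes higher in WT mice, 1182 lay on the same side in Rap1 KI/KI mice (99.8%) and 874 were called (73.8%). Of the 577 lower genes, 564 lay on the same side (97.7%) and 375 were called (65%). When both genotypes were fitted with the slide as a block, 242 of the 483 higher and 35 of the 249 lower genes of that WT fit were called. No gene was called in opposite directions. *Ckmt2* stood at 8.56, 9.18 and 8.31 in the hearts and 9.43, 8.69 and 7.96 in the muscles of KI1, KI2 and KI3, and *Hrc* at 7.59, 8.19 and 7.44 and at 8.29, 8.32 and 8.26. *Sqle* stood at 3.20 to 5.57 in liver and brain and at -2.45 to 0.10 in heart and muscle, again without overlap.

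The muscle array of KI3 stood apart. Its neuron markers had a mean level of 1.93, against -1.82 and -3.85 on the muscle arrays of KI1 and KI2 and -4.55 to -3.70 on those of the WT mice. Its astrocyte markers had a mean of 1.73, against -4.55 to -3.31 on the other 5 muscle arrays. *Rbfox3*, a neuronal gene that was lower in WT heart and muscle, had levels of -2.08, -3.14 and 2.99 in the muscles of KI1, KI2 and KI3 and did not keep its side. *Aldoc*, at 1.65, -0.93 and 5.18, kept its side but not its call. Adipocyte markers had a mean of 4.17 and 5.30 in the hearts of KI1 and KI3, above the 1.72 of KI2. Without the muscle array of KI3, 1181 and 571 genes kept their side and 877 and 415 were called. The genes that did not keep their side then numbered 9, against 15 with the array. Neuron markers had means of -1.33 and -0.82 in the hearts of KI1 and KI3 as well, against -3.32 in that of KI2. The part of such cells in the lost calls was not tested. Without KI1 or KI2, 409 and 355 of the higher genes and 130 and 94 of the lower genes were called.

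**Figure D5:**
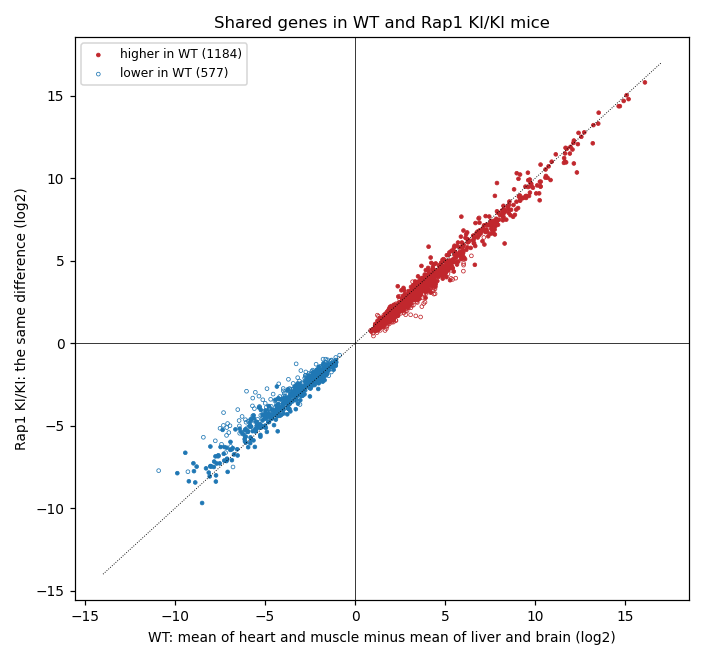
Mean of heart and muscle minus mean of liver and brain, in log2 units, of the 1184 higher (red) and 577 lower (blue) genes in WT mice (x axis) and Rap1 KI/KI mice (y axis), each point 1 gene and 3 mice per genotype. Filled points were also called in Rap1 KI/KI mice, and the dotted line marks equal differences. All points lie in the upper right or the lower left.

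The size of the contrast was compared between the genotypes over all 24 arrays. At an adjusted p of 0.05, limma called 0 of 40758 probes, and thus 0% of the genes, with a lowest adjusted p of 0.437. Quantile normalization, the mouse as a block and the slide as a block each called 0 as well. Without adjustment, 2146 of the 40758 probes had a p below 0.05, a share near that threshold itself. By gene these were 956 of 18022, with larger shares among the shared genes, 132 of the 1184 higher and 44 of the 577 lower. The median of the contrast in Rap1 KI/KI minus that in WT mice was -0.30 at the higher genes and 0.29 at the lower genes. Over all genes it was -0.09. The shared genes were chosen on the WT arrays, and the part of that choice was not tested. With 3 mice per genotype, a lack of calls does not show equal contrasts. On the second slide, which held 2 hearts and 2 brains of each genotype and is the only slide with a striated and a non-striated tissue, the hearts of the Rap1 KI/KI mice lay above the brains at all 1184 higher genes and below them at all 577 lower genes. Muscle and liver never shared a slide.

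Other probes of the same genes were read from the same arrays. The 1184 higher genes had 390 other tested probes, at 321 genes, of which 310 met the rule in the same direction (79.5%), 211 passed the tests and 9, at 6 genes, lay on the opposite side. The 577 lower genes had 178 other probes at 151 genes, of which 123 met the rule in the same direction (69.1%), 78 passed and 2 lay on the opposite side.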

How the data were processed

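The authors hybridized RNA of 4 tissues from 3 WT and 3 Rap1 KI/KI mice to 1-color Agilent arrays, 1 array per sample, and deposited the intensity of each spot from Feature Extraction 12.0.3.1 (grid build mm9) and a normalized score per probe. The deposited score was within 0.005 of the z-score of log10 processed intensity within the array. Array normalization and tests are not given in the sources used here. Here, the processed intensity was log2-transformed, probes averaged and the 75th percentile of each array subtracted. Probes that 3 or more of the 12 WT arrays scored as well above background were tested with limma 3.58.1 in R 4.3.3. A probe passed if its 4 differences had 1 sign and the highest p, adjusted by the method of Benjamini and Hochberg over 40758 probes, was below 0.05. RefSeq accessions named 28331 of 55681 probes, and each gene was read from its tested probe with the highest mean. The members and gene lists were chosen with earlier results of these data known. The named genes are those of the lists, the isozyme pairs, the widest margins and the threshold. All 4 tissues came from the same mice, and deviations correlated between tissues by -0.22 to 0.28 over 18 pairs, so the mouse as replicate block was an alternative. The normexp alternative used median foreground and background signals, with an offset of 50. The number of arrays limits the precision. Some members of the lists are counted but not reported here by name.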

Additional observations from a re-analysis of the deposited data

How the results depend on the processing

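The 3 mice per genotype, slides that hold mostly 1 tissue each and a kit tied to the tissue group limit these results. The numbers of shared genes, 1184 higher and 577 lower, were 1101 and 518 with the mouse as replicate block and 483 and 249 with the slide as block, and 572 to 897 and 281 to 359 with 1 mouse left out. With the slide as block, the averaged tissues differed at 3865 and 3687 genes, 242 and 35 of the genes shared in that fit were called in Rap1 KI/KI mice, and 88 and 145 of them were higher in heart and in muscle, against 293 and 311 of the 1184 and 577. These counts, here and below, are within the shared genes of each WT fit. With an adjusted p of 0.01 the last counts were 132 and 180, and 228 lower genes were called in Rap1 KI/KI mice. With probes above background on all 12 arrays, 1705 genes lay on the lower side and 3477 were lower in the averaged tissues. With 1 mouse left out, 355 to 770 and 94 to 366 shared genes were called in Rap1 KI/KI mice (877 and 415 without the KI3 muscle alone), 66 to 156 and 124 to 215 were higher in heart and in muscle, and 0 to 3 probes differed between genotypes. The margin of Terf2ip, -0.09, was 0.14 with the slide as block. Quantile normalization, median scaling, normexp, the deposited scores, no filter, a trended robust fit and the mean over probes gave 1057 to 1325 higher and 464 to 676 lower genes. The cause of these shifts was not tested.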
